A study of Mus musculus with 2 samples.

Results

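The cells described here were interstitial macrophage-like cells of the mouse lung, rich in transcripts of complement C1q. They were 457 of the 15453 cells deposited, 157 of the 8280 control cells and 300 of the 7173 fibrosis cells. A cell was counted when at most 10% of its unique molecular identifiers (UMIs, 1 per captured transcript) fell on mitochondrial genes and C1qa, C1qb and C1qc together held at least 0.3% of them. It also had to have fewer than 4 of 10 alveolar macrophage genes (Ear2, Mrc1, Marco, Abcg1, Krt79, Plet1, Atp6v0d2, Car4, Lpl, Fabp1), Mmp12 under 0.1% of UMIs, and no UMI of Cd79a or Pecam1. Cells with a UMI of Lyve1, Folr2 or Cd163, 3 surface receptors, were then set apart as receptor-positive, and the remaining cells are called receptor-negative. The cells were thus chosen by the measured levels of all these genes, which are given as a description. Both libraries came from whole lung of a male C57Bl/6J mouse aged 3 months, 1 mouse each, 14 days after 100 µg of particles entered the trachea. Every protocol in the labels names both titanium dioxide, a dust, and crocidolite asbestos, a fibre that scars the lung, without assigning them to mice, and the libraries go by their labels, control and fibrosis. With 1 library a group there was no statistical test between them, and every 95% interval covers counting error only.

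C1q starts the classical complement pathway when it binds antibodies, dying cells or debris, and tissue macrophages are its main source. Its A, B and C chains are encoded side by side and assemble into 1 protein. Interstitial macrophages lie in the lung wall outside the air spaces. In mouse tissues, those rich in LYVE1, FOLR2 and CD163 are known to sit along blood vessels, whereas those rich in MHC class II, which presents antigen to T cells, are known to sit near nerves.

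The markers of the label are described first. Of 157 control and 300 fibrosis cells, 156 and 297 held at least 3 of C1qa, C1qb, C1qc, Ms4a7 and Pf4. The 3 C1q genes chose the cells, so this count was nearly fixed by the rule and is no check of the label. Outside the rule, Ms4a7 was detected in 121 control and 205 fibrosis cells, and Pf4 in 131 and 210. Ms4a7, a membrane protein of macrophages that was not in the rule, stood at 627.0 CPM in control and 578.0 CPM in fibrosis cells, where CPM is a gene's summed UMIs per 1000000 UMIs of the group. It stood 3.97 log2 units above the highest of 8 other gated cell classes in whichever library showed the smaller gap. These classes were alveolar macrophages, classical and nonclassical monocytes, type 2 dendritic cells, B cells, T cells, alveolar type 2 (AT2) epithelial cells and endothelial cells. The median depth was 3343 UMIs in control and 3141 UMIs in fibrosis cells, from sums of 572536 and 1093471 UMIs. The libraries shared 89 cell barcodes, carried by 1 of the control and 4 of the fibrosis cells.

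Cells lay close to the edges of the rule on both sides. The lowest C1q share inside the rule was 0.310% of UMIs in control and 0.304% in fibrosis cells, and the highest share just outside was 0.244% and 0.298%. Between 0.3% and 0.5% lay 9 control and 31 fibrosis cells, and 8 and 27 cells with C1q between 0.2% and 0.3% met all other criteria. The limit on alveolar macrophage genes was nearer to the fibrosis cells: 39 of them held 3 of the 10 genes, against 10 control cells, and 7 and 1 further cells with 4 genes stayed outside. The highest Mmp12 share inside was 0.0826% in control and 0.0985% in fibrosis cells, and the lowest outside was 0.123% and 0.101%.

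Transcripts of other cell types were also present. AT2 transcripts (Sftpc, Sftpb, Slc34a2, Lamp3, Sftpa1) summed to 6779 CPM in control and 14873 CPM in fibrosis C1q-rich cells, against 10397 and 31896 CPM in the B cell gate, whose cells should lack them. Receptor-positive cells held 2306 CPM in control and 20271 CPM in fibrosis, and receptor-negative cells 10774 and 12511 CPM, so the kinds of cell differed in opposite directions in the libraries. Slc34a2 or Lamp3 was detected in 11.5% (18 of 157) of control and 24.0% (72 of 300) of fibrosis cells, against 14.2% and 31.3% of the B cell gate. The neutrophil list summed to 5469 and 2924 CPM, and the alveolar macrophage list to 183 and 716 CPM, with Marco and Car4 at 0 UMIs in the control cells. At least 3 markers of the AT2 list were found in 34 control and 93 fibrosis cells, and of the neutrophil list in 27 and 25. For the classical monocyte list these counts were 18 and 18, for the club cell list 7 and 11, and for the alveolar macrophage list 0 and 13. B cell, mast cell, platelet, red cell and endothelial lists reached 3 markers in 0 cells of either library. The rule itself excluded Cd79a of the B cell list and Pecam1 of the endothelial list. A doublet score marked 548 of all 8280 control and 412 of all 7173 fibrosis cells, numbers set by an expected rate. Among them were 6 of the 157 control and 18 of the 300 fibrosis C1q-rich cells. The part of these transcripts in the differences below was not tested.

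C1q-rich cells took a larger share of the fibrosis library. They were 1.96% of 8026 control cells passing the mitochondrial limit (exact Clopper-Pearson 95% interval 1.66 to 2.28) and 4.32% of 6945 fibrosis cells (3.85 to 4.82). Among the macrophage, monocyte and dendritic gates together they were 5.63% (157 of 2788) and 14.1% (300 of 2135). A share depends on how many cells of the other types each suspension yielded, and the spread between mice is unknown.

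Within these cells the balance of the receptors lay the other way. A UMI of Lyve1, Folr2 or Cd163 was found in 47.8% of control cells (75 of 157, 39.7 to 55.9) and 32.3% of fibrosis cells (97 of 300, 27.1 to 37.9). Folr2, a folate receptor, was detected in 38.9% and 23.3% of cells. Cd163, the receptor for haemoglobin bound to haptoglobin, was detected in 31.8% and 20.7%, and Lyve1, a receptor for hyaluronan, in 17.8% and 9.67%. With every cell thinned to 1500 UMIs, which left out 1 control cell, the receptor-positive share was 37.2% and 24.7%. In the B cell gate, with a median of 2077 control and 2809 fibrosis UMIs, 0.733% (6 of 819) and 4.73% (21 of 444) of cells held a UMI of any of the 3. Among the other gates this share was highest in endothelial cells, at 36.3% (81 of 223) and 63.7% (114 of 179). Type 2 dendritic cells came next, at 8.25% and 10.4%. The receptors were found together: 48 of the 75 control and 47 of the 97 fibrosis cells held at least 2 of them, and 16 and 17 cells held all 3. A single UMI decided the class of 15 control and 24 fibrosis cells.

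**Figure D1:**
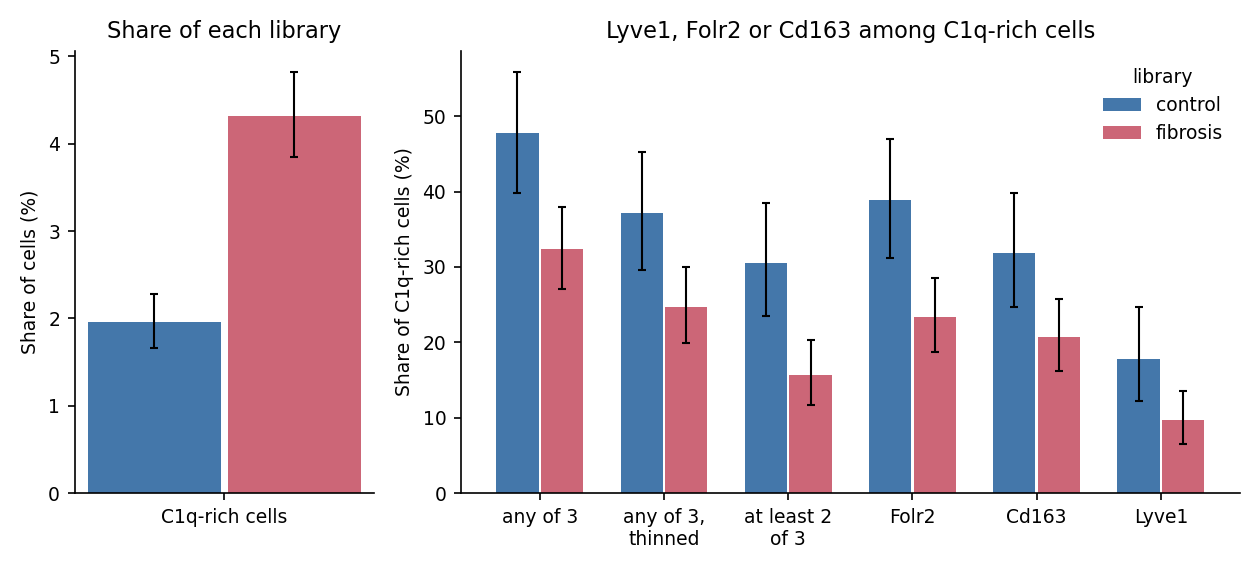
Left, C1q-rich cells as a percentage of the cells of each library that passed the mitochondrial limit. Right, the percentage of C1q-rich cells with a UMI of any or of at least 2 of Lyve1, Folr2 and Cd163, of any after thinning to 1500 UMIs, and of each of the 3 genes, with exact 95% intervals; the share of C1q-rich cells was higher in the fibrosis library (4.32% against 1.96%) and every receptor share plotted was lower.

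The C1q genes themselves, whose sum chose the cells, lay together on chromosome 4 in GRCm38. C1qa lay at chr4:136895917-136898803, C1qc at chr4:136889804-136893065 and C1qb at chr4:136880129-136886187, all on the minus strand. C1qa stood at 6583 CPM in control and 4736 CPM in fibrosis cells, C1qb at 5491 and 4094 CPM, and C1qc at 4588 and 3453 CPM. The log2 ratio of fibrosis over control was -0.48 for C1qa (-0.54 to -0.41), -0.42 for C1qb (-0.49 to -0.36) and -0.41 for C1qc (-0.48 to -0.34), so the 3 chains were lower by nearly the same factor. In the other 8 gates the median log2 ratio was 0.73 for C1qa and C1qb and 1.29 for C1qc. The median C1q share of cells was 0% in each of these gates, in both libraries. The monocyte, type 2 dendritic and T cell gates also required C1q under 0.3% of UMIs. These ratios thus compare low and partly capped levels. Per cell, the median C1q share of UMIs was 1.86% in control cells (lower and upper quartiles 1.41 and 2.21) and 1.33% in fibrosis cells (0.886 and 1.70), and the ranges overlapped, with highest values of 4.38% and 4.02%.

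Receptor-positive cells held somewhat more C1q than receptor-negative cells in both libraries. Their median C1q share was 2.09% against 1.69% of UMIs in control and 1.58% against 1.20% in fibrosis cells. Apoe, the lipid carrier apolipoprotein E, was spread more widely, at a median of 2.97% against 1.18% of UMIs in control cells and 2.04% against 0.811% in fibrosis cells. The log2 ratio of receptor-positive over receptor-negative cells for Apoe was 1.03 in control and 0.96 in fibrosis cells. For Ms4a7 it was 0.19 (-0.12 to 0.49) and 0.03 (-0.22 to 0.27), so this marker was at a similar level in both kinds of cell within its counting error.

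**Figure D2:**
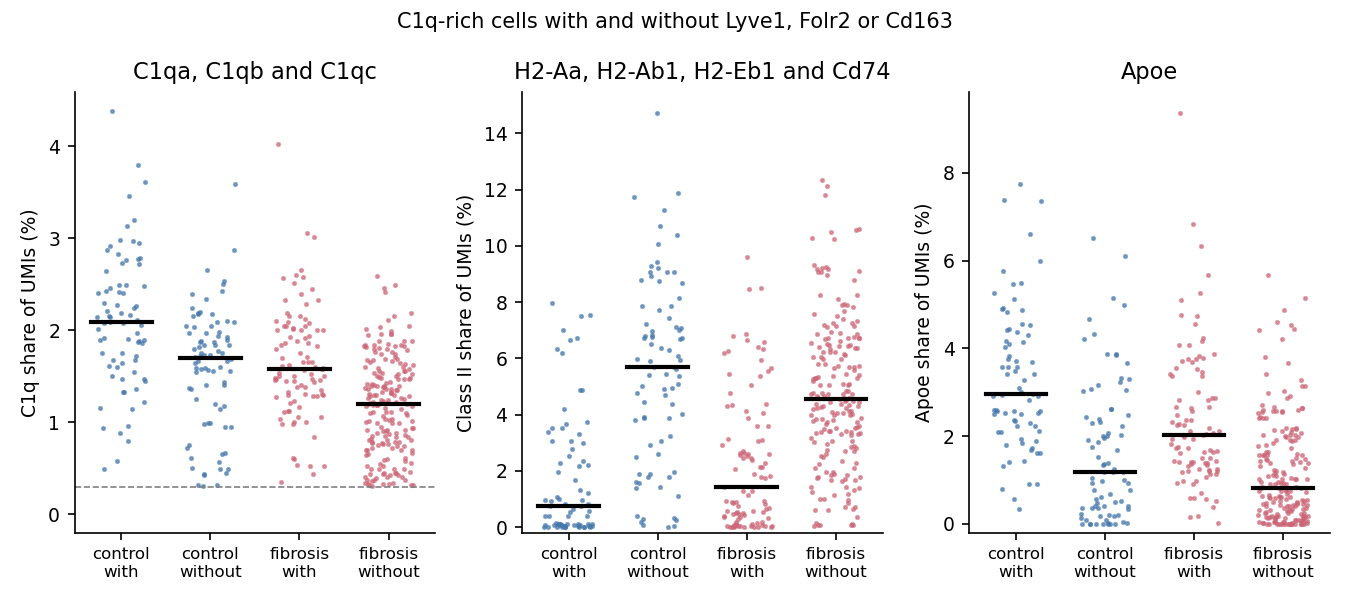
Each point is 1 C1q-rich cell, plotted by the percentage of its UMIs on C1qa, C1qb and C1qc (left, dashed line at the 0.3% of the rule), on H2-Aa, H2-Ab1, H2-Eb1 and Cd74 (middle) and on Apoe (right), for cells with and without Lyve1, Folr2 or Cd163 in each library; bars are medians. Class II medians were 0.766% with against 5.69% without in control and 1.43% against 4.55% in fibrosis cells, with overlapping ranges.

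Promoter sequences are shown for genes that chose the cells or were high in receptor-positive cells. They are C1qb for the shared C1q locus, Folr2 and Cd163 from the receptor split, and Pf4 and Cd209f, which were high in receptor-positive cells. The sequences were read from RefSeq (GRCm38.p6) as up to 250 bases before the start, without annotated exon bases. Capitals mark TGCTGA, the half-site of the factor c-Maf, or GGAAGT, a core bound by the macrophage factor PU.1, on either strand (TCAGCA and ACTTCC on the other). C1qb came from chr4:136886201-136886450, minus strand, Folr2 from chr7:101857195-101857440, minus strand, and Cd163 from chr6:124304401-124304650, plus strand. Pf4 came from chr5:90772185-90772434, plus strand, and Cd209f from chr8:4105836-4106014, minus strand.
C1qb: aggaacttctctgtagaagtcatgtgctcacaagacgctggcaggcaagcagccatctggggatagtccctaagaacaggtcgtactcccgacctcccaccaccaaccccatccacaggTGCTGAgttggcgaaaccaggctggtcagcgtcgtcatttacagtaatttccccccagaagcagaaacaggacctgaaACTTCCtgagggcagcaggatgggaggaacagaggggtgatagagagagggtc
Folr2: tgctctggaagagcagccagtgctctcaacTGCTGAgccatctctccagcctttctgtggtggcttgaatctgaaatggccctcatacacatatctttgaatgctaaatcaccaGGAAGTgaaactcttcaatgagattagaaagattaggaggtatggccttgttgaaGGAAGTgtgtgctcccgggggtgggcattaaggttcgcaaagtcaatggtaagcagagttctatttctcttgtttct
Cd163: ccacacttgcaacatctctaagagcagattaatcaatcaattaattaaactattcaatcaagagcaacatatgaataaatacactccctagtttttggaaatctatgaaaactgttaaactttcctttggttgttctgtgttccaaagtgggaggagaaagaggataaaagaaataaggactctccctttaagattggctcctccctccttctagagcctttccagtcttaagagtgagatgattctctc
Pf4: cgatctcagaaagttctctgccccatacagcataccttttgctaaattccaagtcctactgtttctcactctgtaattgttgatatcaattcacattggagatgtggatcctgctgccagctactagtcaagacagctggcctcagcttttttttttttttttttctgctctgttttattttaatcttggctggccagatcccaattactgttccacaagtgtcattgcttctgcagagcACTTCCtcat
Cd209f: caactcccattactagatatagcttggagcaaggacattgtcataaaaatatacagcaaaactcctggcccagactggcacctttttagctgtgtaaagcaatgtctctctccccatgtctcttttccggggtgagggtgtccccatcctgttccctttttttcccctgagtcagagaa
The C1qb window held 1 match to each motif, the printed Folr2 window 1 to TGCTGA and 2 to GGAAGT, and the Pf4 window 1 to GGAAGT. A second Folr2 window, at chr7:101845332-101845581 and not printed, held 1 match to TGCTGA and 0 to GGAAGT. The windows of Cd163 and Cd209f held neither. Of all 32851 windows of 250 bases, 16.1% held TGCTGA and 19.7% held GGAAGT on either strand. Among 15 genes, the 12 highest in receptor-positive cells and the 3 rule genes, 11 had an entry, of which 2 held TGCTGA and 4 held GGAAGT. Counted by window, as all windows were, 3 of their 14 windows held TGCTGA and 4 held GGAAGT. Not all of these were 250 bases long. A match is a description of the letters and not a bound site.

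The contrast between receptor-positive and receptor-negative cells was wide in a perivascular gene list, in both libraries. A gene was called when its log2 ratio passed 1 in the same direction in both libraries, among 6889 genes with at least 20 UMIs in C1q-rich cells. This held for 238 genes higher in receptor-positive cells (3.45% of genes) and 100 lower (1.45%). Of 22 measured perivascular genes other than Lyve1, Folr2 and Cd163, 20 were called higher and 0 lower, and all 22 were above 0 in both libraries. These 22 still included Mrc1, which the rule limited. Their median log2 ratio was 2.18 in control and 1.99 in fibrosis cells, against 0.16 and 0.13 over all genes. The list was chosen with earlier results of these data known.

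Cd209f, a C-type lectin of the CD209 family at chr8:4102787-4105835 whose members are similar in sequence, marked this split most sharply. It gave 115 UMIs in control receptor-positive cells and 68 in fibrosis receptor-positive cells, and 0 in receptor-negative cells of both libraries. This was at least 42.9-fold higher in control and at least 51.8-fold higher in fibrosis cells, with 3 UMIs over the group as the floor. It was detected in 15 of 75 and 18 of 97 receptor-positive cells, and 0 of 82 and 0 of 203 receptor-negative cells allow a share of cells with a UMI of up to 3.66% and 1.48%. In the B cell gate 0.366% and 0.450% of cells held a UMI. Most receptor-positive cells thus gave no Cd209f UMI at this depth, and 1 control cell held 63 of the 115 UMIs. Cd209g, a neighbouring lectin, gave 38 UMIs against 1 in the control library (log2 ratio 4.84, 2.85 to 10.75) and 23 against 0 in the fibrosis library. Reads could be split between such similar genes, so the level of each is uncertain.

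Other perivascular genes were graded rather than present or absent. F13a1, the A chain of coagulation factor XIII, stood at 825.5 CPM in receptor-positive and 102.5 CPM in receptor-negative control cells, and at 907.3 and 43.4 CPM in the fibrosis library. Gas6, the bridge between dying cells and the TAM receptors, stood at 455.3 against 79.4 CPM and 387.6 against 72.3 CPM. Maf, which encodes c-Maf, stood at 1114 against 291.0 CPM and 1082 against 284.0 CPM, a log2 ratio of 1.93 in both libraries. Mrc1, the mannose receptor, was detected in 96.0% of receptor-positive and 51.2% of receptor-negative control cells, and in 83.5% and 60.6% of fibrosis cells, against 2.93% and 5.63% of the B cell gate. Mrc1 is among the 10 alveolar macrophage genes of the rule, so its level was partly limited by it. Stab1, a scavenger receptor, Cbr2, a carbonyl reductase, Igfbp4, which binds insulin-like growth factors, and Ninj1, a membrane adhesion protein, had log2 ratios of 1.33 to 2.55 in control and 1.45 to 2.45 in fibrosis cells.

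**Figure D3:**
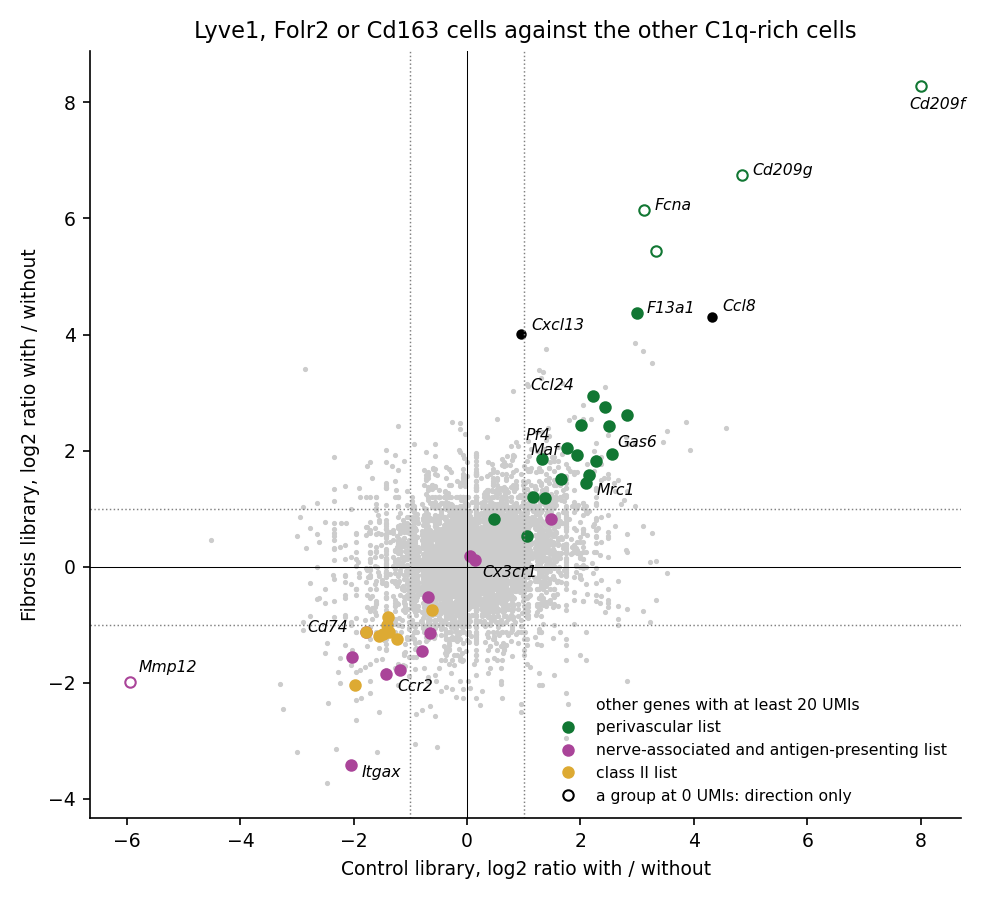
Each point is a gene with at least 20 UMIs in C1q-rich cells, plotted by its log2 ratio of receptor-positive over receptor-negative cells in the control (x) and fibrosis (y) library; dotted lines mark 2-fold, the 3 rule genes are left out, and genes with a group at 0 UMIs are drawn, as open circles that show direction only, for the 3 lists alone. The perivascular list lay to the upper right (median 2.18 and 1.99) and the class II list to the lower left (median -1.41 and -1.13).

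Receptor-negative cells were the class II-rich ones. All 9 measured class II genes were below 0 in both libraries and 7 were called lower in receptor-positive cells, with medians of -1.41 in control and -1.13 in fibrosis cells. Cd74, the invariant chain that escorts class II, stood at 28259 CPM in receptor-negative and 8162 CPM in receptor-positive control cells. In the fibrosis library it stood at 22810 and 10467 CPM, so the gap was narrower there. H2-Aa, a class II alpha chain, stood at 7722 against 2913 CPM and 7468 against 3717 CPM. Ciita, the transcriptional switch of class II genes, had log2 ratios of -1.24 and -1.25. The split by receptors was not a clean split by class II: the 4 class II transcripts held under 1% of UMIs in 43 of 75 receptor-positive and 8 of 82 receptor-negative control cells, and in 45 of 97 and 17 of 203 fibrosis cells.

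Among 12 genes of the nerve-associated and antigen-presenting list, 6 were called lower in receptor-positive cells and 0 higher. In both libraries 9 lay below 0 and 3 above 0, among the latter the chemokine Ccl12. Cd74 is also in the class II list. Ccr2, the monocyte receptor for CCL2, was detected in 43.9% (36 of 82) of receptor-negative and 14.7% (11 of 75) of receptor-positive control cells, and in 43.8% (89 of 203) and 12.4% (12 of 97) of fibrosis cells. The B cell gate held it in 6.96% and 9.23% of cells. Cx3cr1, the receptor for fractalkine, did not follow this split, with log2 ratios of 0.04 (-0.27 to 0.36) and 0.18 (-0.06 to 0.41). Itgax, which encodes CD11c, gave 5 UMIs in receptor-positive and 25 in receptor-negative control cells and 3 against 85 in the fibrosis library. The log2 ratio of Cd72, a receptor of the lectin family, was -2.03 and -1.55. Mmp12, macrophage elastase, which the rule limited, gave 0 against 34 UMIs and 8 against 77.

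The genes lowest in receptor-positive cells outside these lists were also low in both libraries. Zmynd15, a zinc finger gene, gave 0 UMIs in receptor-positive and 39 in receptor-negative control cells, so it was at least 11.6-fold higher in the receptor-negative cells. In the fibrosis library it gave 6 and 124 UMIs, a log2 ratio of -3.07 (-4.65 to -2.01). H2-M2, a nonclassical MHC gene, gave 0 against 20 UMIs in control cells, at least 5.96-fold higher in receptor-negative cells, and had a log2 ratio of -3.06 in the fibrosis library. Tnfsf13b, which encodes the B cell survival factor BAFF, had log2 ratios of -3.24 and -2.46. Nes, the filament protein nestin, had -2.47 and -3.73, and Clec4b1, a C-type lectin, -2.32 and -3.15.

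Some chemokine ligands divided along the same line. Of 15 measured chemokine ligands, 4 were called higher in receptor-positive cells (Ccl7, Ccl8, Ccl24, Pf4) and 0 lower, with medians of 0.69 and 0.78. Of 12 measured growth factors and cytokines, 1 was called higher and 0 lower. Their medians were 0.16 in control and 0.12 in fibrosis cells, against 0.16 and 0.13 over all genes. In both libraries 6 of the 12 lay above 0 and 4 below. Ccl8, which attracts cells through CCR2 and CCR8 in mice, stood at 755.1 CPM in receptor-positive and 36.4 CPM in receptor-negative control cells, and at 3281 and 165.6 CPM in the fibrosis library. The log2 ratio between the kinds of cell was 4.32 (3.51 to 5.40) and 4.30 (4.04 to 4.59). One control cell held 78 of the 204 receptor-positive UMIs and another 8 of the 11 receptor-negative ones, and without the highest cell of each group the ratios were 5.35 and 4.47. Pf4, platelet factor 4, was detected in 75 of 75 receptor-positive control cells and 95.9% of those in the fibrosis library. It was detected in 68.3% and 57.6% of receptor-negative cells and in 2.32% and 3.83% of the B cell gate. Its level was 4138 against 1217 CPM in control and 3107 against 754.6 CPM in fibrosis cells.

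Ccl24, eotaxin-2, which attracts eosinophils, was rarer. It was detected in 25.3% of receptor-positive and 2.44% of receptor-negative control cells, and in 16.5% and 1.97% of fibrosis cells, against 0.122% and 0.901% of the B cell gate. Cxcl13, which draws B cells, gave 120 against 69 UMIs in control cells and 200 against 28 in fibrosis cells. The 69 UMIs of the receptor-negative control cells came from 3 cells. In receptor-positive cells, 4 cells held 69 of the 120 control UMIs. In fibrosis receptor-positive cells 4 cells held 160 of the 200, and 1 of them 84. A UMI of Cxcl13 was found in 19 of 75 receptor-positive and 3 of 82 receptor-negative control cells. In the fibrosis library it was found in 19 of 97 and 10 of 203. Ccl2, Ccl7, Ccl12 and Ccl8 lie in a cluster on chr11, where Ccl2 begins at 82035571 and Ccl8 ends at 82116799. Of these, Ccl12, a CCR2 ligand, had log2 ratios of 1.47 and 0.82, Ccl7 1.35 and 2.02, and Ccl2 0.69 (-0.38 to 1.85) and 1.14 (0.32 to 1.96). Igf1, insulin-like growth factor 1, had 1.50 (0.94 to 2.10) and 0.77 (0.49 to 1.04).

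**Figure D4:**
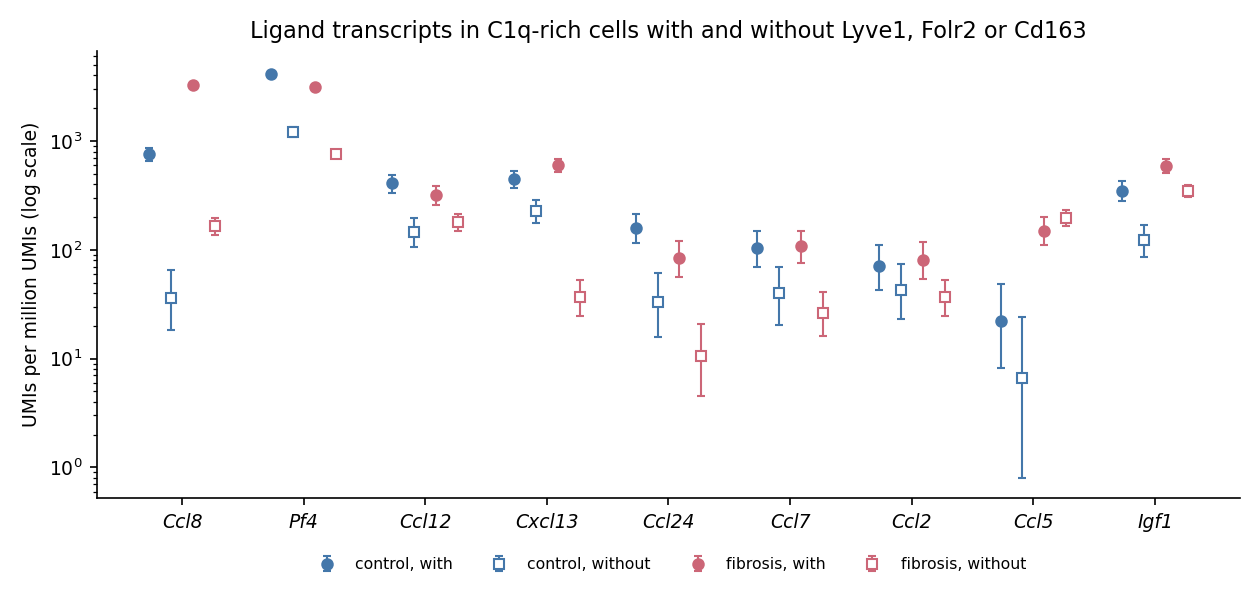
CPM (log axis) of ligand transcripts in C1q-rich cells of each library, with (filled circles) and without (open squares) Lyve1, Folr2 or Cd163; bars are exact Poisson 95% intervals. Ccl8 stood at 755.1 and 3281 in receptor-positive cells of the control and fibrosis library and at 36.4 and 165.6 in receptor-negative cells.

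Complement and iron genes also separated the kinds of cell. Of 12 measured complement genes, 4 were called higher in receptor-positive cells and 0 lower. Cfp, properdin, which stabilises the alternative pathway, stood at 403.5 against 198.4 CPM and 264.4 against 111.8 CPM. C4b, the component that C1 cleaves, gave 11 UMIs against 1 and 37 against 6, and Cd55, a decay-accelerating factor, had log2 ratios of 3.27 and 3.51. Of 13 iron and haem genes, 4 were called higher (Trf, Cp, Tfrc, Slc40a1) and 0 lower. Trf, which encodes transferrin, stood at 1655 against 648.2 CPM in control and 895.3 against 383.9 CPM in fibrosis cells, while Cp, the ferroxidase ceruloplasmin, had log2 ratios of 2.43 and 3.10. Slc40a1, the iron exporter ferroportin, rested on 10 control and 13 fibrosis UMIs in all.

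The median log2 ratio of cytokine and chemokine receptors was 0.27 in control and 0.17 in fibrosis cells, against 0.16 and 0.13 over all genes. Of 21 receptors, 1 was called higher (Tgfbr2) and 2 lower (Ccr2, Tgfbr1), where 3.45% and 1.45% of all genes were. The TGF-beta receptor genes thus lay in opposite directions, Tgfbr2 at 1.63 and 1.41 and Tgfbr1 at -1.44 and -1.17. Csf1r, the receptor that keeps macrophages alive, had log2 ratios of 1.02 (0.77 to 1.27) and 0.98 (0.78 to 1.18). Of 25 transcription factors, 3 were called higher, among them Maf. Spi1, which encodes PU.1, had 0.06 in both libraries.

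Fibrosis and control C1q-rich cells were then compared over all members. Of 6889 measured genes, 358 (5.20%) were at least 2-fold higher and 202 (2.93%) at least 2-fold lower in the fibrosis library, and the median log2 ratio was -0.02. The other 8 classes were compared in the same way, and the median of their log2 ratios for a gene is given as the shift of the other classes. Subtracting it left 206 genes called higher. A shift needed 10 UMIs in at least 3 classes, so genes without one could not be called and 206 came from fewer genes.

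Perivascular genes were lower in the fibrosis library. Of 25 measured, 24 had a log2 ratio below 0, 21 with an interval below 0, and 5 were at least 2-fold lower (Ccl24, Fcna, Cd209b, Cd209f, Cd209g) and 0 higher. The 25 included Lyve1, Folr2 and Cd163, which define the split, and Mrc1, which the rule limited. Without these 4, 21 of 21 were below 0, 18 with an interval below 0, and the 5 lower calls were among them. The median of the 25 was -0.67, where all genes had -0.02 and 51.9% of them lay below 0, and the median shift of the other classes was 0.36. Pf4 stood at 2596 CPM in control and 1471 CPM in fibrosis cells, a log2 ratio of -0.82 (-0.92 to -0.72). Within receptor-positive cells the list's median was -0.23 and within receptor-negative cells -0.69, beside the lower share of receptor-positive cells given above. Maf had -0.37 over all members and -0.04 within each kind of cell.

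Single members of the list showed both patterns. Folr2 had a log2 ratio of -0.83 and Cd163 -0.66 over all members, and -0.20 and -0.03 within receptor-positive cells. Stab1 had -0.56 overall and -0.47 within receptor-positive cells. Cd209f had -1.69 (-2.15 to -1.25), and -0.83 once the cell with most of its UMIs was left out of each library. Ccl24, at 92.6 CPM in control and 32.9 CPM in fibrosis cells, had -1.49 (-2.14 to -0.85). Mrc1 was the member that was not below 0, at 564.2 and 571.6 CPM, a log2 ratio of 0.02 (-0.18 to 0.22).

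Interferon-stimulated genes were lower as well. All 11 measured had a log2 ratio below 0 in the fibrosis library, 10 with an interval below 0, and 6 were at least 2-fold lower. The median was -1.02 and the median shift of the other classes -0.24. Ifitm3, which blocks virus entry, stood at 990.3 CPM in control and 426.2 CPM in fibrosis cells (-1.22, -1.40 to -1.04). Ly6e, another membrane protein with antiviral action, stood at 1462 and 790.1 CPM (-0.89, -1.03 to -0.75). Irf7, the factor that amplifies interferon production, gave 28 and 21 UMIs (-1.34, -2.24 to -0.48). One control cell held 14 of the 28, and the ratio was -0.77, short of 2-fold, without the highest cell of each library. The list was lower in both kinds of cell, with a median of -1.15 in receptor-positive and -0.62 in receptor-negative cells. The neutrophil list summed to 7781 CPM in control and 1559 CPM in fibrosis receptor-positive cells, and to 3403 and 3521 CPM in receptor-negative cells, and its part in these medians was not tested. Ifit1, an interferon-induced RNA-binding protein, rested on 14 and 8 UMIs, of which 11 control UMIs came from 1 cell, and its ratio of -1.70 was -0.31 without the highest cell of each library.

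Genes of scar-associated macrophages were higher. Of 14 measured, 5 were at least 2-fold higher in the fibrosis library (Spp1, Gpnmb, Arg1, Ctsk, Fabp5) and 0 lower, 9 had an interval above 0, and the median was 0.52. The median shift of the other classes was 0.68, and 5 of the 14 genes lay below their shift. Fabp5, a fatty acid binding protein, gave 53 UMIs in control and 337 in fibrosis cells, a log2 ratio of 1.72 (1.31 to 2.18) beside a shift of 1.00. One control cell held 31 of the 53 UMIs, and the ratio was 2.61 without the highest cell of each library. Trem2, a lipid-sensing receptor, stood at 251.5 and 325.6 CPM, a log2 ratio of 0.37 (0.09 to 0.66), where the other classes had -0.33.

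The most specific genes of this list stayed rare. Spp1, which encodes osteopontin, gave 3 UMIs in control and 99 in fibrosis cells (log2 ratio 3.90, 2.52 to 6.41) beside a shift of 2.75. A UMI was found in 3 of 157 control and 39 of 300 fibrosis cells, against 1.95% and 8.56% of the B cell gate. One fibrosis cell held 34 of the 99 UMIs. Gpnmb, a glycoprotein of lipid-laden macrophages, gave 0 and 36 UMIs and was at least 6.28-fold higher. Its UMIs lay in 0 of 157 control and 13 of 300 fibrosis cells (4.33%), against 1.10% and 2.25% of the B cell gate. In the fibrosis library 4 cells held 27 of the 36 Gpnmb UMIs. Arg1, arginase 1, gave 0 and 27 UMIs, at least 4.71-fold higher, also in 13 of 300 fibrosis cells, against 0.450% of the B cell gate. Of the 27 Arg1 UMIs, 17 lay in 4 cells.

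**Figure D5:**
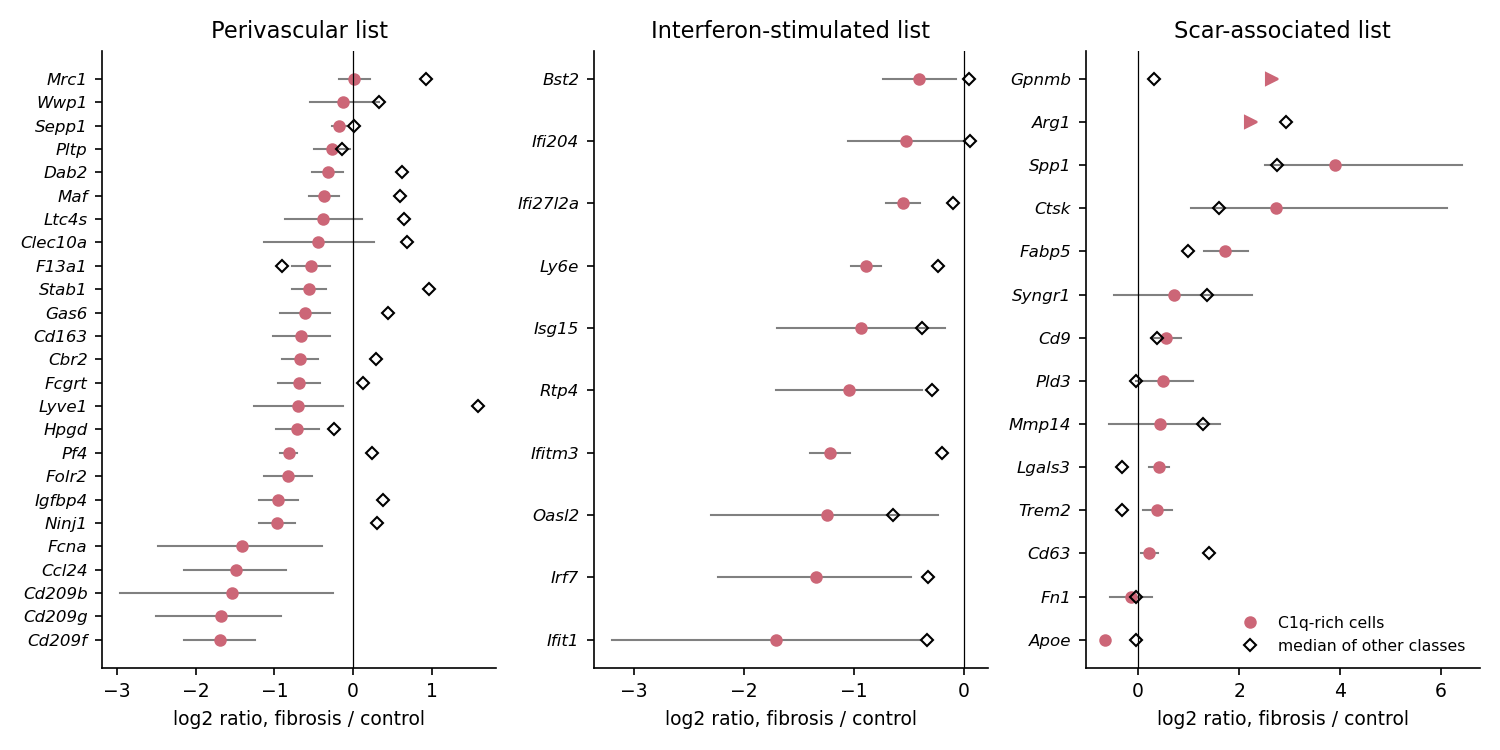
Log2 ratio of the fibrosis over the control library for genes of the perivascular, interferon-stimulated and scar-associated lists in C1q-rich cells (circles, with 95% counting intervals) and the median over the other gated classes (open diamonds, where at least 3 classes had 10 UMIs). Triangles mark Gpnmb and Arg1, at 0 UMIs in control cells, at their lower bound; 24 of 25 perivascular circles and all 10 interferon-stimulated circles drawn, of 11 measured genes, lie below 0.

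Chemokines moved in both directions between the libraries. Of 15 measured, 2 were at least 2-fold higher in the fibrosis library (Ccl5, Ccl8) and 3 lower (Ccl4, Ccl24, Cxcl2). Ccl8 stood at 375.5 CPM in control and 1114 CPM in fibrosis cells (log2 ratio 1.57, 1.36 to 1.78), with 2.12 within receptor-positive and 2.13 within receptor-negative cells. Its detection was 41.3% of receptor-positive control cells and 62.9% of those in the fibrosis library, or 29.7% and 57.7% after thinning, against 0.488% and 2.70% of the B cell gate. The other classes held Ccl8 at 0.503 to 3.26 CPM in control and 7.77 to 12.5 CPM in fibrosis cells, a shift of 2.36, so the ratio relative to them was -0.80. Igf1 stood at 228.8 and 419.8 CPM, a log2 ratio of 0.87 (0.59 to 1.17) beside a shift of 2.48. It was detected in 43.3% of control and 57.7% of fibrosis cells, against 0.244% and 2.70% of the B cell gate.

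Ccl5, a chemokine of T and NK cells, gave 8 and 200 UMIs (3.63, 2.70 to 4.94) beside a shift of 0.48. Gzma, granzyme A of the same cells, gave 4 and 77 UMIs. Ccl5 was detected in 14.0% and Gzma in 6.33% of fibrosis cells, against 13.7% and 7.21% of the B cell gate. The list of NK cell markers summed to 12.2 CPM in control and 121.6 CPM in fibrosis cells and reached 3 of 5 markers in 4 fibrosis cells. Its Ncr1, Klrb1c and Prf1 were at 0 in control cells, and its part in the Ccl5 difference was not tested. Ccl4, a chemokine of activated macrophages, gave 39 and 11 UMIs (-2.71), and 33 of the 39 came from 1 cell, without which the ratio was -0.55 with the highest fibrosis cell left out too. For Cxcl2, which attracts neutrophils, 13 of 38 control UMIs came from 1 cell, and the ratio without the highest cell of each library was -0.68. Of the 3 lower chemokines, only Ccl24 (-1.49) thus stayed 2-fold lower in that setting.

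Among receptors and class II genes no ratio reached 2-fold. Of 21 receptors 0 were at least 2-fold apart, and of 9 class II genes likewise 0, with a median log2 ratio of -0.01. Over all measured genes 5.20% were at least 2-fold higher and 2.93% lower. The median shift of the other classes for the class II genes was 0.39, and 9 of 9 lay below their own shift. Their median was 0.05 within receptor-positive and -0.31 within receptor-negative cells. Cd74 stood at 18776 CPM in control and 19053 CPM in fibrosis cells. Cx3cr1 had 0.06 (-0.13 to 0.25), Ccr2 0.25 (-0.04 to 0.54) and Csf1r -0.37 (-0.53 to -0.22). Among scavenger and efferocytosis receptors, with 0 of 20 apart by 2-fold, Mertk, the TAM receptor that takes up dying cells, had 0.93 (0.17 to 1.82), while its ligand Gas6 had -0.61 (-0.93 to -0.29). Fcgr2b, the inhibitory IgG receptor, had 0.56 (0.32 to 0.81), and Cd68, a lysosomal membrane protein, -0.66 (-0.91 to -0.40).

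Complement genes, those of C1q included, were mostly lower or level, with 0 of 12 apart by 2-fold and a median of -0.29. Over all measured genes 5.20% were at least 2-fold higher and 2.93% lower. Cfp stood at 295.2 CPM in control and 158.2 CPM in fibrosis cells (-0.90, -1.21 to -0.59). In the iron list the carrier and its receptor lay in opposite directions: Trf stood at 1123 and 539.6 CPM (-1.06, -1.22 to -0.89), and Tfrc, the transferrin receptor, gave 7 and 40 UMIs (1.50, 0.41 to 2.98). Apoe stood at 21770 and 13840 CPM (-0.65, -0.69 to -0.62), where the other classes had a shift of -0.03.

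Ear2 and Rnase2a, neighbouring ribonucleases of the eosinophil family whose similar sequences leave the level of each uncertain, were among the genes most raised in the fibrosis library. Rnase2a gave 0 UMIs in control and 88 in fibrosis cells, at least 15.4-fold higher. Its UMIs lay in 29 of 300 cells (9.67%), against 0.676% of the B cell gate. Ear2, which the rule used as an alveolar macrophage gene, gave 27 and 281 UMIs and was detected in 6.37% and 21.0% of cells, against 6.96% and 11.3% of the B cell gate. In the fibrosis library Rnase2a gave 50 of its 88 UMIs in 15 receptor-positive cells and 38 in 14 receptor-negative cells, and Ear2, limited by the rule, gave 23 of its 281 in receptor-positive cells. The alveolar macrophage gate held Rnase2a at 3.95 CPM in control and 146.8 CPM in fibrosis, against 80.5 CPM in fibrosis C1q-rich cells. The alveolar macrophage list, at 183 and 716 CPM, reached 3 markers in 0 control and 13 fibrosis C1q-rich cells, and its part in these differences was not tested.

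The genes most particular to C1q-rich cells among the gated classes were ranked by their CPM over that of the highest of the other 8 gates, taking the library with the smaller ratio. Outside the C1q genes, Ccl8 came first at 6.45 log2 units, then Ccl12 at 5.84, Folr2 at 5.77, Pf4 at 5.41 and Cd209f at 5.40, followed by Cd209g. Cxcl13 stood at 4.32, Tmem119, a membrane protein also known from microglia, at 4.14, Ccl7 at 4.07 and Ms4a7 at 3.97. Tmem119 was higher in receptor-negative cells (log2 ratio -1.19 and -1.78), whereas the chemokines named here were higher in receptor-positive cells. Timd4 and Vsig4, markers of long-lived resident macrophages in other tissues, were rare and lay among receptor-positive cells, Timd4 in 3 control and 6 fibrosis cells and Vsig4 in 3 and 4 cells.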

How the data were processed

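Cells of 2 lung libraries (10x Genomics 3′ chemistry, version 2) were deposited by the authors as raw UMI counts per gene and cell, without normalisation. The submitters' processing notes name Cell Ranger 1.3, bcl2fastq and mm10. Members, gates and the 17 gene lists were chosen with earlier results of these data known. Counts of each group were summed and given per 1000000 UMIs (CPM), with exact Poisson intervals; ratios carry exact binomial intervals, with 0.5 UMI added to each sum in the point value. Genes with at least 20 UMIs over both libraries in C1q-rich cells were measured, and a 2-fold ratio was called. Named genes were list members and the 12 highest and 12 lowest of each comparison (at least 50 UMIs), also after subtracting the other classes' median, and the 10 most particular; the promoters printed were picked after values were seen. Shares carry exact Clopper-Pearson intervals at 95%. A group at 0 was given a floor of 3 UMIs or, for a share, 3 cells. Doublets were scored with scrublet in scanpy 1.11.5 (expected 0.8% per 1000 cells) and kept, removal being an alternative. Positions came from GENCODE on GRCm38. Python 3.11.15, numpy 2.4.6, scipy 1.17.1 and pandas 2.3.3 were used. The interval code was tested on simulated data. A few genes counted in the lists are not reported here by name.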

Additional observations from a re-analysis of the deposited data

How the results depend on the processing

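Of 64 alternative values of the main results, 52 stayed close to the reported value and 12 moved. The fibrosis share of C1q-rich cells was 3.76% with fewer than 3 alveolar macrophage genes and 3.21% without cells holding AT2, NK cell or T cell markers, an alternative chosen after seeing the data; both stayed above the control share. The receptor-positive share was 37.2% (control) and 24.7% (fibrosis) after thinning, and 30.6% and 15.7% with at least 2 of the 3 genes. Of 358 higher and 202 lower genes in fibrosis cells, 111 and 58 were left at a minimum of 50 UMIs, which tests fewer genes. After the other classes' median was subtracted, 206 were higher, which also leaves out genes without such a median. For receptor-positive cells, 238 higher and 100 lower genes became 112 and 50 at 50 UMIs, and 150 higher after thinning.

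Of the alternative values of named genes, 1804 stayed close to the reported value, 175 moved and 14 changed direction. Of the list medians, 364 stayed close and 10 moved. Fibrosis over control turned, once the other classes' median was subtracted, for Ccl8 (-0.80), F13a1 (0.36), H2-Aa (-0.26), Igf1 (-1.61), Pgk1 (-0.68), Retnla (-5.12) and Zmynd15 (-0.13). The ratio of receptor-positive over receptor-negative cells turned for Fabp5 in the control library without doublets (0.40) or marker-holding cells (0.0898), and in the fibrosis library after thinning (-0.54). It also turned in control cells after thinning for Ifit1 (-0.83) and Ifitm3 (-0.12), and without the cell with most UMIs, added after seeing the data, for Ifit1 (-1.40) and Irf7 (-0.036). The cause was not tested. No paired analysis was possible because each group held 1 library. Depth limits genes with few UMIs.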

Other observations

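Lysosomal, immediate-early, glycolytic and cell cycle genes of the C1q-rich cells were also compared between the libraries. Over all measured genes 5.20% were at least 2-fold higher in the fibrosis library and 2.93% lower. In lists this small, 0 or 1 call thus says little about the group. Of 21 lysosomal enzymes 0 were 2-fold apart (median log2 ratio of fibrosis over control -0.08). Ctsl, the protease cathepsin L, had 0.72 (0.22 to 1.27) and Lipa, lysosomal acid lipase, 0.57 (0.10 to 1.08). Gusb, beta-glucuronidase, had -0.61 (-0.96 to -0.27). Of 17 immediate-early and heat shock genes 1 was at least 2-fold lower (Egr1, an early growth response factor, -1.65, -2.70 to -0.69) and 0 higher, with a median of -0.35. Of 12 glycolytic genes 1 was higher (Pgk1, phosphoglycerate kinase, 1.78, 0.63 to 3.40, where the other classes had a median of 2.45) and 0 lower, with a median of -0.30. Of 6 cell cycle genes 1 was lower (Birc5, survivin, -1.42) and 0 higher, with a median of -0.23. The medians were 0.68 within receptor-positive and -0.97 within receptor-negative cells. At least 3 of 7 cell cycle genes were detected in 3 control and 3 fibrosis cells.

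Retnla, which encodes the secreted protein RELM-alpha, was listed with 799 UMIs in control and 2204 in fibrosis C1q-rich cells. The control UMIs lay in 5 of 157 cells, and the 4 highest of these held 798. In the fibrosis library 140 of 300 cells (46.7%) held a UMI, against 42.3% of the B cell gate, and the 4 highest cells held 1104 of the 2204. The median log2 ratio of the other classes was 5.65.

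The genes raised most in the fibrosis library included Hc, Muc1 and Spint2, which stood at 1529, 456.0 and 575.3 CPM in the AT2 gate and at 148.2, 44.8 and 54.0 CPM in C1q-rich cells of that library, beside the AT2 marker sums given above.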
